A study of Mus musculus with 10 samples.

Results

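Rab proteins are the largest family of small GTPases, and each marks a membrane compartment of the cell. The members here are all probe sets whose single annotation symbol is Rab followed by a number and, at most, a letter and a further digit, so that regulators and effectors such as Rab3gap1 or Rab11fip2 stay outside. This gave 132 probe sets for 59 genes, of 18193 genes that the annotation names. A probe set was counted as measured if 5 or more of the 10 arrays gave it a log2 signal over 4, and 90 Rab probe sets of 51 genes were. Each gene is described by its probe set with the highest mean over all arrays, and for the genes with probe sets on either side of 0 the opposite ones are given as well. The brightest probe sets of Rab3a, Rab14, Rab2a, Rab22a and Rab4a carry the maker's suffix for probes that can match more than 1 transcript, so their values may include signal from relatives.

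A Rab protein carries a geranylgeranyl tail that holds it in a membrane. It is switched on when an exchange factor replaces GDP with GTP, recruits effectors such as tethers and motors, and is switched off by a GTPase activating protein, after which GDP dissociation inhibitor takes it back to the cytosol. In beta cells Rab3 and Rab27 proteins sit on insulin granules and act in their docking and release, while Rab5, Rab4, Rab11 and Rab7 run the uptake, recycling and breakdown of membrane that follows. In the acinar cells that surround islets, Rab3d, Rab26 and Rab27b belong to the zymogen granules that hold digestive enzymes.

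RNA came from pancreatic endocrine islets of 5 female mice heterozygous for Men1 and of 5 female wildtype littermates, all aged 5 weeks, with the strain given as C57 on a 129 background. Men1 encodes the tumour suppressor menin, and heterozygous mice are born with 1 intact copy, so at this age the comparison is of a reduced dose and not of a full loss in all cells. About 100 islets per mouse were pooled into 1 sample, their RNA was amplified over 2 rounds, and each sample went onto its own array, which makes the mouse the replicate. The study asked which transcripts differ between these genotypes in young islets.

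Men1 itself, through the 1 of its 3 probe sets that was measured, stood at 6.82, 6.09, 6.56, 6.44 and 6.16 in heterozygous islets, against 7.21, 7.18, 6.83, 6.96 and 6.25 in wildtype islets. Its difference was -0.47 (SE 0.20) with an overlap between genotypes, and whether the probe set lies in the altered stretch of the gene was not known here. Markers of islet endocrine cells were present in every sample: 14 of 15 listed genes were measured, and their mean per mouse ranged from 12.83 to 13.45 in heterozygous and from 12.76 to 13.49 in wildtype islets. Acinar markers were present as well, 12 of 16, with means from 13.99 to 14.76 in heterozygous and from 14.44 to 14.75 in wildtype islets. Some mice stood apart. Lymphocyte markers (6 of 12 measured, the Cd3 genes not among them) reached means of 7.79 and 7.29 in heterozygous replicates 2 and 5, against 5.08 to 5.24 in the other heterozygous mice and 5.31 to 6.09 in wildtype mice. Stromal markers, 11 of 12 measured, were all lower on average in heterozygous islets, with means per mouse from 9.12 to 10.94 against 10.05 to 10.91 in wildtype islets. Other lists lay lower on average too, with 6 of 6 measured duct markers, 6 of 7 endothelial and 4 of 5 myeloid markers below 0 and list differences of -0.26, -0.37 and -0.27. Their part in the Rab differences was not tested, apart from the stromal and acinar means as covariates. Wildtype replicate 5 stood apart in several Rab probe sets, among them those of Rab6b. In such bulk samples fewer cells of a type and less RNA per cell cannot be told apart.

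All levels are log2 signals, all differences are heterozygous minus wildtype on that scale, and mice are listed in the order of replicates 1 to 5. Probes of different genes bind with different strength, so levels are compared between mice and not between genes. The main test was limma's moderated test over 18567 probe sets with Benjamini-Hochberg adjustment. It called 0 of the 51 Rab genes and 0 probe sets in all (0% of those tested), with an adjusted p of 0.9999 for each Rab gene. At an unadjusted limma p under 0.05 there were 2 Rab genes of 51, which is 3.92%, where all measured genes gave 3.67% and all probe sets 4.09%. Both were higher in heterozygous islets, as were 1.81% of all measured genes at that p. In 0 of the 51 Rab genes did the 2 genotypes stand without overlap, against 0.550% of all genes and 0.700% of all probe sets. None of the values below therefore amounts to a called change, and they describe how the family looked in these 10 preparations.

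The secretory Rab genes, 7 of 8 measured, gave a measured difference above 0 in 5 genes and below 0 in 2, where 54.4% of all measured genes lay above 0. Rab3a, the granule Rab of neurons and endocrine cells that binds RIM and rabphilin, stood at 11.04, 10.99, 11.07, 11.23 and 11.09 in heterozygous islets, against 11.00, 11.06, 11.14, 11.27 and 11.10 in wildtype islets. The genotypes overlapped over nearly their whole range, and the difference of -0.029 (SE 0.086, 95% interval -0.22 to 0.16) left out a 1.5-fold change in either direction. A second Rab3a probe set, without that suffix, differed by -0.028.

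Rab27a, a granule Rab whose effectors include granuphilin and Slac2 proteins, stood at 9.92, 9.97, 9.83, 9.80 and 10.27 in heterozygous islets, against 9.78, 9.85, 9.80, 9.87 and 9.61 in wildtype islets. All 5 heterozygous mice lay above the wildtype mean, with replicate 5 the highest, and the difference was 0.17 (SE 0.11, 95% interval -0.064 to 0.41), or 0.095 without that mouse. Rab37, a Rab found on insulin granules and on secretory granules of blood cells, stood at 10.06, 10.09, 9.75, 9.53 and 10.26 in heterozygous islets, against 9.80, 9.34, 9.87, 9.59 and 9.75 in wildtype islets. Heterozygous replicates 1, 2 and 5 lay above every wildtype mouse and replicate 4 lay among the lowest, for a difference of 0.27 (SE 0.16, 95% interval -0.073 to 0.61). Of the secretory genes Rab37 had the smallest p. Without heterozygous replicates 2 and 5, the mice with high lymphocyte markers, its difference was 0.11, and with the stromal mean as a covariate it was 0.082. Both of these mice were among those above every wildtype mouse, so leaving them out lowers the difference, and a cause was not tested.

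Rab3b, the Rab3 isoform of pituitary and other endocrine cells, stood at 7.13, 6.74, 6.57, 6.74 and 7.41 in heterozygous islets, against 6.65, 7.13, 7.15, 6.35 and 6.23 in wildtype islets. Both genotypes spread widely, and the difference of 0.21 (SE 0.22, 95% interval -0.28 to 0.70) lay inside that spread. It was 0.091 without heterozygous replicate 5 and 0.095 without wildtype replicate 5. Rab27b, the second Rab27 isoform, stood at 7.21, 7.92, 7.83, 7.69 and 7.01 in heterozygous islets, against 7.21, 7.80, 7.17, 7.38 and 7.01 in wildtype islets. The values of both genotypes covered nearly the same range, with a difference of 0.22 (SE 0.21, 95% interval -0.23 to 0.67), and its 3 measured probe sets all differed in the same direction.

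Rab3d, the Rab3 isoform of exocrine granules, stood at 11.00, 10.85, 10.92, 10.54 and 10.34 in heterozygous islets, against 10.79, 11.12, 10.44, 10.81 and 10.58 in wildtype islets. The groups covered the same range, and of its 4 measured probe sets 2 differed upward and 2 downward, the brightest by -0.019 (SE 0.16, 95% interval -0.38 to 0.34). Rab26, which clusters secretory granules in acinar cells, stood at 5.84, 6.86, 6.53, 5.83 and 4.72 in heterozygous islets, against 5.78, 6.54, 5.60, 5.84 and 5.91 in wildtype islets. Heterozygous mice held both the highest and the lowest value of all 10, with SDs of 0.82 in heterozygous and 0.35 in wildtype islets around a difference of 0.020 (SE 0.35, 95% interval -0.75 to 0.79). This was the widest spread within genotypes of any of the 51 genes. The remaining gene of the class, Rab3c, lay below the filter, with no probe set above a mean of 3.72 and a highest single value of 4.54.

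**Figure D1:**
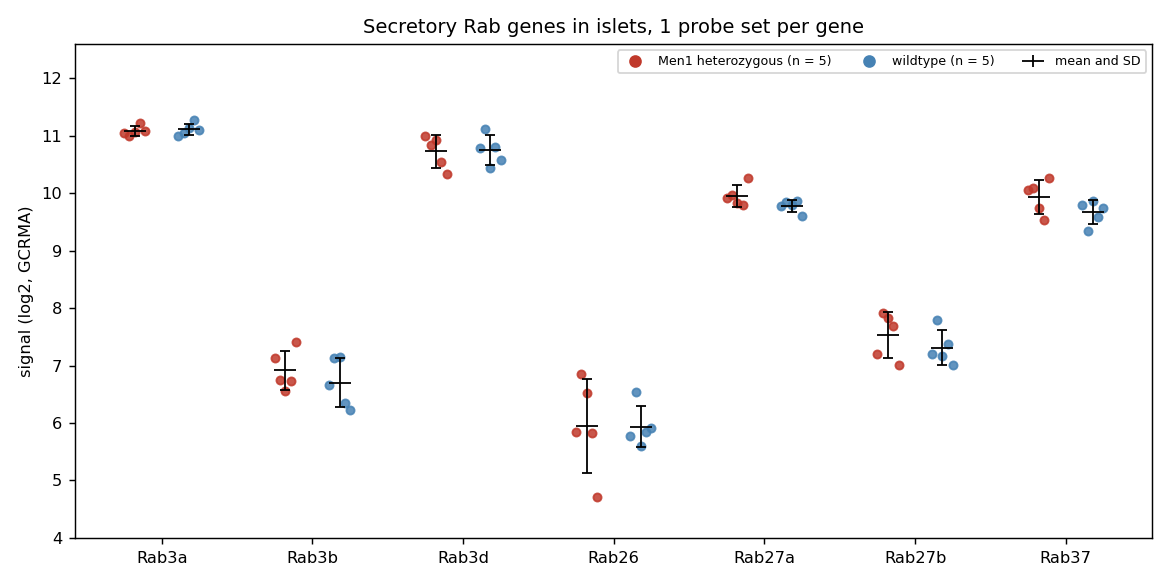
Signal (log2) of the 7 measured secretory Rab genes, 1 point per mouse, with Men1 heterozygous mice on the left and wildtype mice on the right of each pair, and bars for mean and SD. The genotypes overlap in every gene, Rab3a is tight in both, and Rab26 runs from 4.72 to 6.86 in heterozygous islets.

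Of the endocytic Rab genes 20 of 21 were measured, 7 with a difference above 0 and 13 below, and a median of -0.024. On early endosomes, Rab5a, the main organiser of endosome fusion, stood at 11.42, 10.99, 10.91, 11.21 and 11.37 in heterozygous islets, against 11.07, 11.10, 11.35, 11.19 and 11.17 in wildtype islets. The wildtype values fell inside the heterozygous range, and the difference was 0.0060 (SE 0.12, 95% interval -0.26 to 0.27), so that neither a 1.5-fold rise nor a 1.5-fold drop lay inside the interval. Rab5c, a paralog of Rab5a, stood at 7.01, 6.61, 6.59, 7.07 and 6.72 in heterozygous islets, against 6.90, 7.03, 7.27, 7.41 and 6.60 in wildtype islets. It was among the lower values of the class at -0.24 (SE 0.16, 95% interval -0.61 to 0.12), with 4 of 5 heterozygous mice below the wildtype mean. Over the 10 mice Rab5c had an r of 0.634 with the stromal marker mean (Spearman's rho = 0.745, permutation p = 0.0525, adjusted 0.275). Without heterozygous replicates 1 and 3 its r was 0.762. None of the 51 Rab genes had an adjusted permutation p under 0.05 with that mean. Rab37 (r = -0.691), Rab34 (r = 0.687) and Rab32 (r = 0.668) had a larger r in size than Rab5c. With the stromal mean as a covariate the Rab5c difference was -0.059. That mean itself was 9.74 in heterozygous and 10.48 in wildtype islets, and a cause was not tested.

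Rab5b, another Rab5 isoform, was dim in both genotypes, at 4.56, 4.96, 4.65, 4.56 and 4.60 in heterozygous islets, against 4.65, 4.57, 4.66, 4.93 and 4.65 in wildtype islets. Only heterozygous replicate 2 and wildtype replicate 4 lay above the rest, and the difference was -0.026 (SE 0.11, 95% interval -0.26 to 0.21). Rab20, a Rab of phagosomes and early endosomes, stood at 6.61, 6.63, 5.45, 6.03 and 6.21 in heterozygous islets, against 5.98, 6.01, 5.83, 5.84 and 5.94 in wildtype islets. Heterozygous mice ranged from 5.45 to 6.63 while wildtype mice stayed between 5.83 and 6.01, and the difference was 0.27 (SE 0.20, 95% interval -0.18 to 0.71). The other early endosomal genes were Rab21, which carries integrins inward, at 0.11, Rab22a at -0.11, and Rab31 at -0.31, the lowest difference of any Rab gene, where the SD was 0.48 in heterozygous and 0.45 in wildtype islets.

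In the recycling group 8 of 9 genes had a difference below 0 by their brightest probe set, several of them near 0. Of all measured genes 54.4% lay above 0. Rab11a, which marks the recycling endosome, stood at 10.81, 10.98, 10.56, 10.79 and 10.83 in heterozygous islets, against 10.77, 10.89, 10.83, 10.90 and 10.64 in wildtype islets. Rab11b, its close paralog, stood at 9.44, 9.41, 9.42, 9.37 and 9.43 in heterozygous islets, against 9.35, 9.58, 9.67, 9.36 and 9.21 in wildtype islets, a narrow range in heterozygous mice. Neither pair of groups was apart, with differences of -0.012 for Rab11a (95% interval -0.23 to 0.21) and -0.021 for Rab11b (-0.24 to 0.20), and both genes have probe sets on either side of 0. Rab14, which works between the trans-Golgi network and endosomes, stood at 12.92, 12.77, 12.72, 12.87 and 13.09 in heterozygous islets, against 12.76, 12.79, 13.09, 12.82 and 13.15 in wildtype islets. Its difference was -0.047 (SE 0.11, 95% interval -0.30 to 0.20), with 4 of its 6 measured probe sets above 0 and 2 below.

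Rab4a, which drives fast recycling to the surface, was the 1 gene of the group above 0 by its brightest probe set. It stood at 7.68, 8.08, 7.54, 7.69 and 7.43 in heterozygous islets, against 7.13, 7.85, 7.39, 7.39 and 7.46 in wildtype islets, and 4 of 5 heterozygous mice lay above the wildtype mean. The difference was 0.24 (SE 0.15, 95% interval -0.099 to 0.58), and a second, dimmer probe set went the same way at 0.30. Without wildtype replicate 5, which was low on that second probe set, it gave 0.20. Rab4b stood at 8.24, 8.14, 7.84, 8.45 and 8.53 in heterozygous islets, against 8.34, 8.20, 8.40, 8.53 and 8.10 in wildtype islets, with no separation and a difference of -0.070 (SE 0.14, 95% interval -0.38 to 0.24). Rab35, which acts in recycling and in actin control at the surface, stood at 7.07, 6.58, 7.13, 6.83 and 7.03 in heterozygous islets, against 6.93, 7.39, 7.30, 6.86 and 7.10 in wildtype islets. The groups overlapped from 6.86 to 7.13, and its difference was -0.19 (SE 0.14, 95% interval -0.50 to 0.13). Rab15, Rab17 and Rab25, the last of these a Rab11 relative of epithelia, gave -0.25, -0.12 and -0.020. Without wildtype replicate 5, which stood at 6.42, the difference of Rab15 was -0.030.

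On late endosomes, Rab7, which directs cargo to lysosomes, stood at 12.27, 12.19, 12.01, 12.06 and 12.18 in heterozygous islets, against 12.14, 12.11, 12.31, 12.21 and 12.35 in wildtype islets. The spread was narrow in both genotypes and the difference was -0.084 (SE 0.089, 95% interval -0.28 to 0.11). Rab9b, a paralog of the Rab9 that returns receptors from late endosomes to the Golgi, stood at 5.96, 5.65, 5.68, 5.97 and 6.42 in heterozygous islets, against 5.51, 5.43, 6.11, 5.14 and 5.65 in wildtype islets. All 5 heterozygous mice lay above the wildtype mean, although wildtype replicate 3 exceeded 4 of them, and the difference of 0.37 (SE 0.19, 95% interval -0.062 to 0.80) was the highest of the endocytic class. Rab9 itself differed by 0.010 and Rab24, a Rab tied to autophagy, by 0.028. The 1 endocytic gene below the filter was Rab7b.

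The 2 Rab genes under an unadjusted limma p of 0.05 both belonged to the endoplasmic reticulum and Golgi class. Rab2b, a paralog of Rab2a with a role in Golgi structure, stood at 6.99, 7.32, 7.11, 6.94 and 7.13 in heterozygous islets, against 6.45, 6.62, 7.01, 6.51 and 6.54 in wildtype islets. Of the 5 heterozygous mice 3 lay above every wildtype mouse, and wildtype replicate 3 at 7.01 was the only wildtype value inside the heterozygous range. The difference was 0.47 (SE 0.12, 95% interval 0.20 to 0.74), or 1.39-fold, with a limma p of 0.00290 and an adjusted p of 0.9999. It stayed between 0.42 and 0.57 when single mice were left out, and was 0.43 with the stromal mean as a covariate and 0.39 without heterozygous replicates 2 and 5. A second, dimmer Rab2b probe set gave 0.23, and the mean of both gave 0.35 with a limma p of 0.121.

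Rab19, a Golgi-associated Rab, stood at 4.91, 4.56, 4.12, 4.42 and 4.76 in heterozygous islets, against 4.01, 3.69, 4.34, 4.29 and 3.71 in wildtype islets. Heterozygous replicates 1, 2, 4 and 5 lay above every wildtype mouse, and replicate 3 at 4.12 lay inside the wildtype range. The difference was 0.55 (SE 0.18, 95% interval 0.15 to 0.94) with a limma p of 0.0119, the highest of any Rab gene. Rab19 was also close to the filter, with heterozygous and wildtype means of 4.55 and 4.01, and 2 wildtype mice lay under 4. Of the genes not measured, Rab3c, given above, had its highest probe set mean at 3.72.

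Among the other 11 genes of the class 6 were above 0 and 5 below. Rab1a and Rab2a, which carry traffic between the endoplasmic reticulum and Golgi, differed by -0.033 and 0.014 with SDs of at most 0.17, while Rab1b gave 0.19. Rab6a, the Rab of retrograde traffic to and within the Golgi, gave -0.26, Rab34 -0.16, Rab43 0.16, Rab18 0.029 and Rab33b -0.020. Rab39b stood at 8.92, 8.23, 7.87, 8.36 and 9.13 in heterozygous islets, against 8.42, 8.04, 8.54, 8.51 and 8.32 in wildtype islets, where heterozygous mice held the 2 highest values and the lowest, for a difference of 0.14. Rab36, a Golgi Rab, gave 0.40. Wildtype replicate 5 stood at 5.60 there, with the next wildtype mouse at 6.49, and without replicate 5 the difference was 0.22. A second, dimmer Rab36 probe set gave 0.00058 with all mice.

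Rab6b, the Rab6 isoform of neuroendocrine cells, was measured by 3 probe sets that went different ways in 1 mouse. The brightest stood at 8.61, 8.77, 9.10, 9.17 and 8.77 in heterozygous islets, against 9.51, 8.70, 8.50, 8.73 and 9.48 in wildtype islets. The second stood at 8.19, 8.63, 8.95, 8.42 and 8.56 in heterozygous islets, against 8.11, 8.54, 8.08, 8.29 and 5.88 in wildtype islets, and the dimmest at 6.14, 5.95, 6.12, 6.01 and 6.25 in heterozygous islets, against 6.02, 6.02, 5.97, 5.89 and 2.58 in wildtype islets. In wildtype replicate 5 these last 2 probe sets lay more than 2 log2 units below every other mouse, while the brightest was at the upper end of its range there. With all mice the 3 differences were -0.10, 0.77 and 0.80, and without wildtype replicate 5 they were 0.022, 0.30 and 0.12. Which transcripts or exons each probe set covers was not looked up here.

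**Figure D2:**
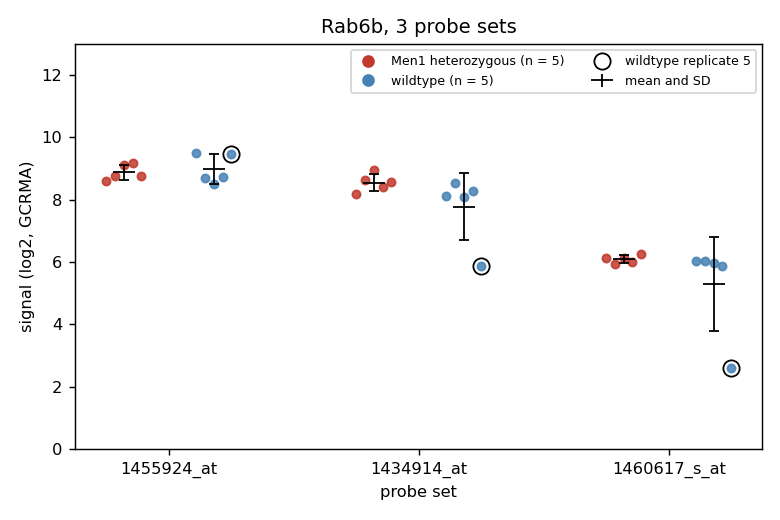
Signal (log2) of the 3 Rab6b probe sets, 1 point per mouse, with Men1 heterozygous mice on the left and wildtype mice on the right of each pair, bars for mean and SD, and wildtype replicate 5 circled. That mouse stands at 9.48, 5.88 and 2.58 from the left probe set to the right one, low in the last 2 only.

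The 9 Rab genes that serve transport to the surface and the cilium were all measured, 4 above 0 and 5 below. Rab8b, which acts with Rab8a in delivery from the Golgi to the plasma membrane, stood at 7.78, 8.08, 7.62, 7.94 and 8.20 in heterozygous islets, against 8.15, 8.26, 8.00, 8.13 and 8.42 in wildtype islets. Of the 5 heterozygous mice 4 lay below the wildtype mean, and the difference of -0.27 (SE 0.13, 95% interval -0.55 to 0.010) had a limma p of 0.0577. Rab10, which in fat cells brings glucose transporter vesicles to the surface, stood at 10.25, 10.33, 10.09, 10.26 and 10.30 in heterozygous islets, against 10.16, 10.23, 10.06, 10.12 and 10.12 in wildtype islets. This was the tightest gene of the family, with a difference of 0.11 (SE 0.081, 95% interval -0.068 to 0.29) and all 3 measured probe sets above 0. Rab8a gave -0.0057, Rab13, a Rab of cell junctions, -0.16, Rab23, a cilium Rab that restrains hedgehog signalling, -0.055, and Rab40b 0.25. Without wildtype replicate 5, at 5.74, the difference of Rab13 was -0.050. Rab12 gave -0.17, Rab28 0.074 and Rab40c 0.015.

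Of the 3 lysosome-related Rab genes 2 were measured. Rab29 stood at 5.72, 6.55, 5.94, 6.14 and 5.45 in heterozygous islets, against 5.48, 6.20, 5.22, 5.92 and 6.02 in wildtype islets, and Rab32, known from melanosomes, stood at 5.56, 5.64, 5.46, 6.09 and 5.55 in heterozygous islets, against 5.65, 5.74, 5.56, 5.74 and 5.90 in wildtype islets. Both overlapped widely between genotypes, with differences of 0.19 (SE 0.23, 95% interval -0.32 to 0.71) for Rab29 and -0.058 (SE 0.13, 95% interval -0.34 to 0.22) for Rab32. Rab38, the melanosome partner of Rab32, lay below the filter, as did Rab30, Rab33a, Rab39, Rab42 and Rab44, the last of these a Rab of bone marrow cells.

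**Figure D3:**
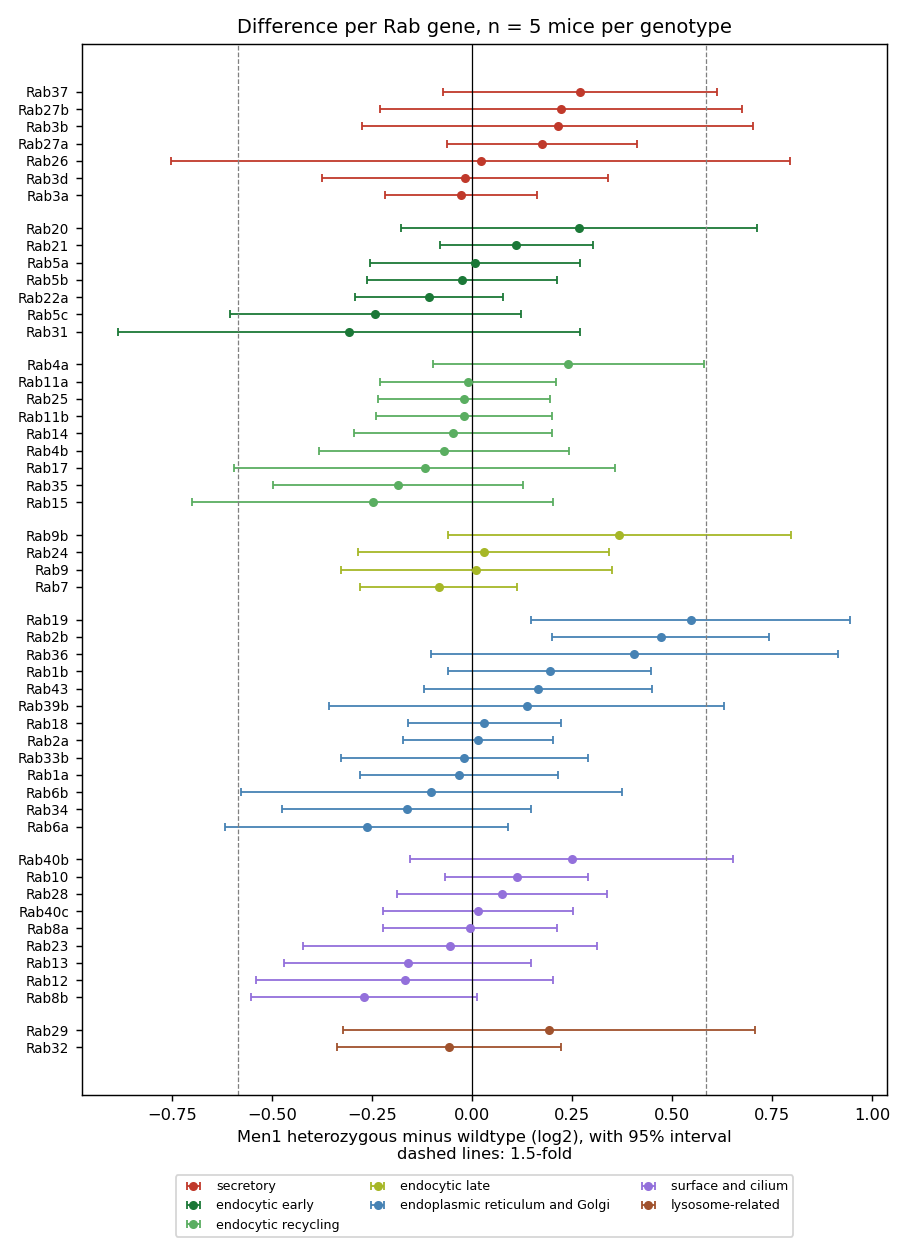
Men1 heterozygous minus wildtype difference (log2) of each of the 51 measured Rab genes, by class, with its 95% interval from limma and dashed lines at a 1.5-fold change. Only the intervals of Rab19 and Rab2b leave out 0 before adjustment, and 34 of the 51 intervals lie wholly between the dashed lines.

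The secretory class had a median difference of 0.17 and the endocytic class one of -0.024, beside 0.014 over all 10538 measured genes and -0.0057 over all 51 Rab genes. A difference above 0 was found in 5 of 7 secretory genes (71.4%) and 7 of 20 endocytic genes (35%), beside the 54.4% of all genes. The gap between the classes was not tested, and the mice overlapped in both. Taking for each gene its deviation from its own mean over the 10 mice, the secretory class averaged 0.073, 0.25, 0.11, -0.045 and -0.085 in heterozygous islets, against -0.094, 0.16, -0.074, -0.082 and -0.22 in wildtype islets. The same average for the endocytic class ran from -0.12 to 0.077 in heterozygous islets and from -0.068 to 0.13 in wildtype islets. Heterozygous replicate 2 and wildtype replicate 2 were the highest of their genotypes in the secretory class, and wildtype replicate 5 was the lowest of all. Leaving out 1 mouse moved the secretory median to 0.095 without wildtype replicate 5, 0.095 without heterozygous replicate 5, 0.12 without heterozygous replicate 2 and 0.13 without wildtype replicate 4. With the stromal mean as a covariate it was 0.082.

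For 34 of the 51 genes (66.7%) the 95% interval lay wholly within a 1.5-fold change in either direction, against 73.5% of all measured genes. By class this held for 3 of 7 secretory genes (Rab3a, Rab3d and Rab27a), 14 of 20 endocytic genes, 8 of 13 endoplasmic reticulum and Golgi genes, 8 of 9 surface and cilium genes and 1 of 2 lysosome-related genes. The median SD within genotypes was 0.23 for the Rab genes and 0.24 for all measured genes. Of the 24 genes with more than 1 measured probe set, 11 had probe sets on both sides of 0. Besides Rab3d, Rab6b and Rab14, these were Rab1a with an opposite probe set at 0.17, Rab18 at -0.17, Rab22a at 0.17, Rab23 at 0.17, Rab28 at -0.075, Rab2a at -0.00045, Rab11a at 0.061 and Rab11b at 0.30.

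The genes that work on Rab proteins were taken from lists of 94 genes, of which 76 were measured. Limma called 0 of them after adjustment, with 46 above 0, 30 below, and 2 (2.63%) under an unadjusted p of 0.05. Among secretory effectors 9 of 16 were measured, 6 of them above 0 with a median of 0.018. Rims2, the RIM protein that links Rab3 on granules to calcium channels, stood at 8.47, 8.55, 8.76, 8.65 and 8.87 in heterozygous islets, against 8.45, 7.92, 8.55, 8.40 and 8.29 in wildtype islets. Of the 5 heterozygous mice 3 lay above every wildtype mouse, and the difference was 0.34 (SE 0.13, 95% interval 0.046 to 0.63) with a limma p of 0.0269. Exph5, a Rab27 effector also called Slac2-b, stood at 9.29 ± 0.26 in heterozygous islets and 9.02 ± 0.17 in wildtype islets (SD, n = 5 each) and differed by 0.27 (SE 0.14, 95% interval -0.034 to 0.58). Sytl4, or granuphilin, and Rph3al, or Noc2, which both bind granule Rabs in beta cells, gave 0.018 and -0.069, and were named after their values were seen.

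Among exchange factors 19 of 23 were measured, 10 above 0 and 9 below. Dennd1a, the factor for Rab35, stood at 5.84, 5.88, 5.69, 5.85 and 5.68 in heterozygous islets, against 5.38, 5.50, 5.63, 5.74 and 5.52 in wildtype islets. It differed by 0.23 (SE 0.094, 95% interval 0.026 to 0.44), with a limma p of 0.0306, and Dennd5a by -0.24 (SE 0.12, 95% interval -0.51 to 0.033). Of 22 measured GTPase activating proteins 14 were above 0, among them Rab3gap1, the catalytic subunit for Rab3, at 0.15 (SE 0.096, 95% interval -0.064 to 0.36). Tbc1d10b, another protein of this kind, gave -0.22 (SE 0.12, 95% interval -0.48 to 0.053). Of 19 measured endocytic effectors 12 were above 0, led by p with Vps41, a subunit of the HOPS tether, at 0.17 (SE 0.088, 95% interval -0.022 to 0.37) and Rilpl1 at -0.31 (SE 0.20, 95% interval -0.76 to 0.14). The escort and prenylation genes, 7 of 8 measured, ran from -0.13 for Rabggtb, the catalytic subunit of geranylgeranyl transferase, to 0.23 for Rabac1, a Rab acceptor.

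Each of the 51 genes was set against 3 marker means over the 10 mice, 153 relations in all, with 100000 permutations and Benjamini-Hochberg adjustment over the 153. The acinar and endocrine means themselves ran opposite to one another (r = -0.742), so the relations are not independent. Genes outside the Rab family were not correlated with these means. The counts below therefore have no share over all measured genes beside them and cannot show a trait of Rab genes. Lymphocyte markers were not used, since 2 mice stand apart from the other 8 in them.

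Rab26 went with the acinar mean. Its Pearson r was 0.895 and its Spearman rho 0.964 over the 10 mice, with a permutation p of 4e-05 and an adjusted p of 0.00612. Heterozygous replicate 5 had the lowest acinar mean, 13.99, and the lowest Rab26 signal, 4.72, while heterozygous replicates 2 and 3 and wildtype replicate 2 had the highest of both. Without heterozygous replicates 4 and 5, the mice farthest from the median, r was 0.784. Without heterozygous replicate 5 alone r was 0.764 and the adjusted permutation p 0.327, so the call rests on that mouse. The other Rab genes of zymogen granules lay on the same side, Rab3d at r = 0.725 (rho = 0.770, permutation p = 0.0121, adjusted 0.169) and Rab27b at r = 0.547 (rho = 0.600, permutation p = 0.0869, adjusted 0.332), and neither passed. Without heterozygous replicates 4 and 5 their r was 0.454 and 0.650. This side was not particular to Rab genes of zymogen granules, since 13 of the 51 genes had an r above 0 with the acinar mean. Among them was Rab29, a lysosome-related Rab, at r = 0.643 (rho = 0.709, permutation p = 0.0411, adjusted 0.252), which is above Rab27b. Without heterozygous replicates 4 and 5 Rab29 stood at 0.908.

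The other 4 secretory genes had an r below 0 with the acinar mean: Rab27a at -0.635, Rab3b at -0.604, Rab37 at -0.502 and Rab3a at -0.114. None of these passed, and without heterozygous replicates 4 and 5 Rab27a stood at 0.0981, so that its value rests on those mice. The genotype difference of the acinar mean was -0.12, with all 12 measured markers lower on average in heterozygous islets. Without heterozygous replicate 5 it was 0.0089, with means of 14.62 in heterozygous and 14.61 in wildtype islets. With the acinar mean of all mice as a covariate the secretory median was 0.13 and the difference of Rab37 was 0.21.

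With the endocrine mean 38 of 51 genes had an r above 0, a share not known for all measured genes, and 0 passed after adjustment. The highest were Rab2a at r = 0.850 (rho = 0.818, permutation p = 0.00216, adjusted 0.0701), Rab39b at r = 0.845 (rho = 0.927, permutation p = 0.00229, adjusted 0.0701) and Rab5a at r = 0.805 (rho = 0.733, permutation p = 0.00569, adjusted 0.109). The lowest were Rab29 at r = -0.837 (rho = -0.891, permutation p = 0.00305, adjusted 0.0778), Rab26 at -0.829 and Rab27b at -0.812. Without heterozygous replicate 5 and wildtype replicate 3, the mice farthest from the median, r was 0.682 for Rab2a, 0.913 for Rab39b, 0.702 for Rab5a and -0.656 for Rab29. Rab39b passed without wildtype replicate 3 (r = 0.952, adjusted permutation p = 0.0138) and by rank over all mice (adjusted permutation p = 0.0275). With the stromal mean 0 of 51 passed.

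**Figure D4:**
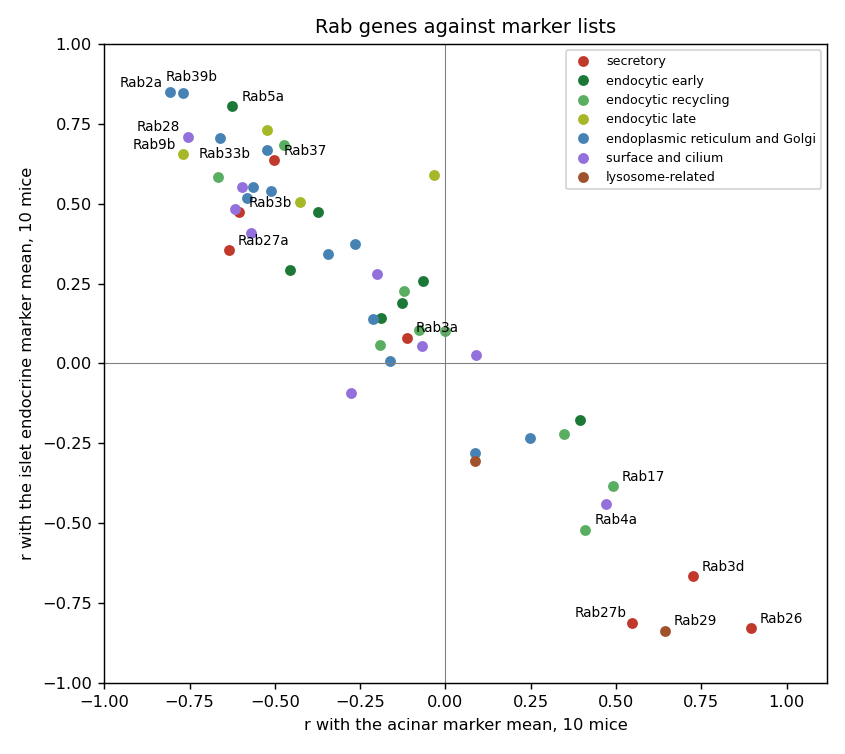
Pearson r of each measured Rab gene with the acinar marker mean (horizontal) and the islet endocrine marker mean (vertical) over 10 mice, coloured by class. Rab26, Rab3d, Rab27b and Rab29 lie at the lower right, and Rab2a, Rab39b, Rab5a and Rab9b at the upper left; the 2 axes are linked, since the marker means ran opposite to one another.

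**Figure D5:**
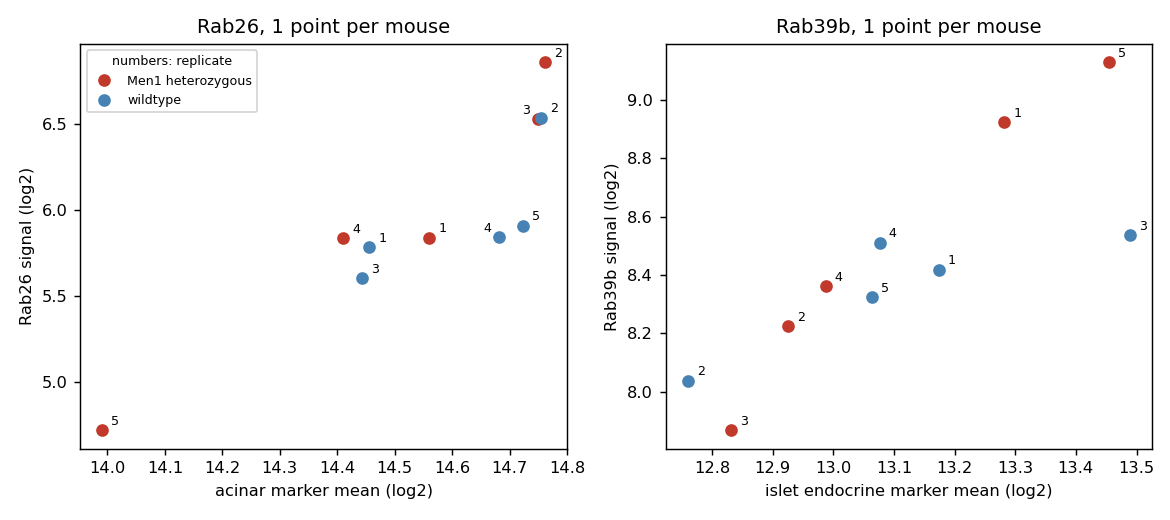
Rab26 signal against the acinar marker mean and Rab39b signal against the islet endocrine marker mean (all log2), 1 point per mouse with its replicate number, Men1 heterozygous and wildtype mice by colour. Heterozygous replicate 5 stands alone at the lower left for Rab26 (13.99, 4.72), and wildtype replicate 3 lies below the trend for Rab39b.

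Of the 6 Rab genes with an r above 0.8 in size against the acinar or the endocrine mean, promoter windows of Rab29, Rab39b and Rab5a are shown, the 3 for which a window was found in the promoter table used. Each window is the 250 bases before the RefSeq start site in GRCm38.p6, written 5′ to 3′ on the gene's strand. Capitals mark E-boxes, CANNTG on either strand since the motif is its own reverse form, which basic helix-loop-helix factors bind as a family. A match to this motif does not name a factor.
Rab29: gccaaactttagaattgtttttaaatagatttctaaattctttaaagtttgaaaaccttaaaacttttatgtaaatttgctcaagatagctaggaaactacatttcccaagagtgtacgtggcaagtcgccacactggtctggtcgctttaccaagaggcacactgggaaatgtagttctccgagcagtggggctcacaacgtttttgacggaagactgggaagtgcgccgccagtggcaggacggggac
Rab39b: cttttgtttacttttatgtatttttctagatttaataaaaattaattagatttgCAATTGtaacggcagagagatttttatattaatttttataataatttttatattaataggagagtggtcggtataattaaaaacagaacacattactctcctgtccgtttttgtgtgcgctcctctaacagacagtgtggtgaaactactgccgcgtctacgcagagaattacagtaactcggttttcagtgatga
Rab5a: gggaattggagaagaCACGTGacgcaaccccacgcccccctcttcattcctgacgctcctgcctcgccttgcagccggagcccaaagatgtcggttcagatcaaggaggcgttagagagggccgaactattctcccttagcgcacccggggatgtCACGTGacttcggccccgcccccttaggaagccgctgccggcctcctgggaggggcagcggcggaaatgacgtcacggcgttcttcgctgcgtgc
The Rab29 window, chr1:131867027-131867276 on the plus strand, holds 0 E-boxes and 9 CG pairs. The Rab39b window, chrX:75578232-75578481 on the minus strand, holds 1 E-box, CAATTG, and 8 CG pairs, in 31.6% G and C. The Rab5a window, chr17:53478984-53479233 on the plus strand, holds the E-box CACGTG at 2 places, which begin 235 and 95 bases before the start, and 23 CG pairs in 64% G and C. Over the 60 windows found for 48 of the 59 Rab genes, 63.3% held at least 1 E-box, against 66.2% of all 32851 promoter windows of this length. The Rab windows had a median of 15 CG pairs, where all windows had 6. Of the Rab windows 56 belonged to measured genes, with a median of 15.5, and 4 to genes not measured, with a median of 7. The set of all windows was not split in this way, so the 2 sets may differ in their share of measured genes. The median was 14 for secretory and 14 for endocytic Rab genes, 18.5 for those of the endoplasmic reticulum and Golgi, 20 for surface and cilium genes and 7 for the 2 lysosome-related windows. A match describes the letters and is no measured binding site.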

How the data were processed

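The deposited values are log2 signals, 1 per probe set and array, which the authors computed by GCRMA according to the submitters' processing notes. That method corrects background from probe sequence and normalizes between arrays, so dim probe sets are drawn together near the floor and a shift common to all genes cannot be seen. The log2 scale was read from the values (0.654 to 17.58, array medians 3.28 to 3.40). RNA input was 100 ng, amplified over 2 cycles per the labels' protocols, which can enlarge differences between small samples. The number of arrays limits precision: the median 95% interval of a difference reached 0.33 to either side. Scan dates and other batches were not among the labels, so no batch was tested.

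Probe sets were named through GEO's platform annotation, without those that carry several symbols. Groups came from the sample titles. Control probe sets were left out, and 18567 of 45037 were kept (log2 above 4 on at least 5 arrays). The difference was fitted with limma 3.58.1 in R 4.3.3, two-sided, without covariates, and tested on simulated data. Replicate numbers came from the sample titles only, and same-numbered mice of the 2 genotypes correlated at -0.28 to 0.11 in their deviations. The numbers were therefore not used as pairs in the main fit, although shared litters or batches cannot be told from this. Permutations and tables used Python 3.11.15 and figures matplotlib 3.10.9. Genes shown with a value for each mouse were the secretory Rab genes, 9 endocytic ones, those without overlap between genotypes (0), those under an unadjusted p of 0.05 and the 2 with the smallest p in each class. Rab6b, Rab39b, Rab36 and Rab31 were named after their values were seen, as were the promoter windows and their motif. The members, lists and tests were chosen with earlier results of these data known. Zfyve20, an older symbol of Rbsn, was taken out of the effector list. The planned correlation with lymphocyte markers was not run, since 2 mice stand apart in them.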

Additional observations from a re-analysis of the deposited data

Results flagged for a closer look

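Within each genotype, every one of the 90 measured Rab probe sets was searched for a mouse whose gap to the next mouse exceeded 0.71 of the genotype's range, Dixon's criterion for 5 values. Of 180 groups 19 held such a mouse, where chance flags about 1 in 20, or 9. Wildtype replicate 5 accounted for 7 of the 19, heterozygous replicate 5 for 4 and heterozygous replicate 4 for 3. Dim probe sets near the filter are among them, and causes were not tested.

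In wildtype replicate 5, Rab6b stood at 5.88 on 1 probe set, where the nearest wildtype mouse was at 8.08, and at 2.58 on another, where the nearest was at 5.89. Rab36 stood at 5.60 (nearest 6.49), a second Rab4a probe set at 4.95 (nearest 5.40) and a second Rab7 probe set at 8.08 (nearest 8.39), all low. Rab15 at 6.42 (nearest 5.43) and Rab13 at 5.74 (nearest 5.23) were high in the same mouse.

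In heterozygous replicate 5, a dimmer Rab23 probe set stood at 5.73 (nearest 4.40), a dimmer Rab2a probe set at 5.68 (nearest 5.13) and Rab9 at 8.86 (nearest 8.46), all high, and a Rab3d probe set at 8.55 (nearest 9.12), low. This is the mouse with the lowest acinar mean. In heterozygous replicate 4, Rab34 stood at 7.62 (nearest 7.19), Rab32 at 6.09 (nearest 5.64) and a dimmer Rab11b probe set at 6.40 (nearest 5.98), and this mouse had the highest stromal mean of its genotype, 10.94.

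In wildtype replicate 2, a dim Rab14 probe set stood at 3.76 (nearest 5.73) and a second Rab3a probe set at 6.80 (nearest 7.21). The remaining cases were Rab17 at 4.80 in wildtype replicate 3 (nearest 4.41), and Rab5b at 4.96 in heterozygous replicate 2 (nearest 4.65) and at 4.93 in wildtype replicate 4 (nearest 4.66).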

How the results depend on the processing

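Under every alternative run, limma called 0 probe sets and 0 Rab genes after adjustment, also at an adjusted p of 0.10. At an unadjusted p under 0.05 the Rab count ranged from 1 to 5 genes, and the count over all probe sets moved between settings too. The main setting gave 2 of 51 Rab genes, beside 760 of 18567 probe sets. A stricter filter gave 1 of 42 Rab genes, beside 508 of 12867 probe sets. Adjusting for the acinar mean gave 5 of 51 Rab genes, beside 1305 of 18567 probe sets. The replicate block also gave 5 of 51, beside 786 of 18567. Whether the Rab count moved by more than that of all probe sets was not tested. The secretory median stayed above 0 (0.082 to 0.19) and the endocytic median below 0 (-0.099 to -0.0069). Single mice left out in turn gave 0.095 to 0.19 for the secretory, -0.053 to -0.010 for the endocytic and -0.021 to 0.029 for the all-Rab median. The same-numbered mice correlated at -0.28 to 0.11 in their deviations, which cannot show whether they share a litter or a batch. For wildtype replicate 5 alone the same-numbered heterozygous mouse was the most alike. With the replicate block 0 probe sets and 0 Rab genes were called and the medians stayed at 0.17, -0.024 and -0.0057.

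Of the 25 Rab genes that the naming rule chose, 15 kept their direction under all alternatives run. The others had differences near 0 and changed sign as follows, with causes not tested. Rab5a gave -0.0078 after quantile normalization, -0.010 after median centring and -0.048 with the acinar covariate, under which Rab5b gave 0.0017 and Rab3d 0.075. Rab3d gave 0.042 with array weights, 0.073 without heterozygous replicates 2 and 5 (Rab3a there 0.00059) and 0.015 as the mean of its probe sets, a setting that gave Rab11a 0.025, Rab11b 0.068 and Rab14 0.014. With the stromal covariate Rab26 gave -0.086, Rab3a 0.045, Rab11a 0.058, Rab11b 0.0014, Rab4b 0.11 and Rab32 0.12. Single mice left out gave ranges of -0.21 to 0.33 for Rab26, -0.054 to 0.074 for Rab5a, -0.099 to 0.033 for Rab5b, -0.095 to 0.079 for Rab3d, -0.066 to 0.010 for Rab3a, -0.058 to 0.047 for Rab11a, -0.077 to 0.038 for Rab11b, -0.10 to 0.0087 for Rab14 and -0.14 to 0.029 for Rab4b. Among the genes that kept their sign in this step the ranges were -0.16 to -0.0084 for Rab32, 0.095 to 0.21 for Rab27a, 0.12 to 0.35 for Rab27b, 0.091 to 0.33 for Rab3b, 0.15 to 0.45 for Rab20, 0.046 to 0.32 for Rab29, 0.14 to 0.34 for Rab4a, -0.25 to -0.099 for Rab35, -0.35 to -0.15 for Rab5c, -0.12 to -0.052 for Rab7 and 0.25 to 0.50 for Rab9b. Of the genes named beyond the rule, Rab6b turned to 0.022 without wildtype replicate 5.

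Alternatives for the marker correlations were chosen after seeing the data. Of 153 relations 1 passed in the main setting, 0 to 2 when single mice were left out (0 without heterozygous replicate 5, 2 without wildtype replicate 3), 2 by Spearman's rho and 1 after median centring.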
